A study of Mus musculus with 10 samples.

Results

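The STAT transcription factors and the JAK kinases that activate them were followed in whole tumours grown from RENCA, an established line of mouse kidney cancer cells, after injection of an agonist of the viral RNA sensor RIG-I. The genes were chosen by symbol from a list of 9, namely Stat2, Stat3, Stat4, Stat5a, Stat5b, Stat6, Jak1, Jak2 and Tyk2. Of these, 8 have a row among the 18603 genes of the deposited count table and all 8 passed the filter on low counts, which kept 15883 genes. Stat4 was not analysed here. RENCA cells were implanted under the skin of female Balb/c mice, and both groups therefore carry the same single cancer cell line in the same host. The PBS group (5 tumours from 5 mice) received PBS, the vehicle, and the SLR14 group (5 tumours from 5 mice) received lipid nanoparticles loaded with SLR14, a triphosphate-bearing hairpin RNA made to activate RIG-I. Effects of the RNA and of the nanoparticles cannot be told apart in this contrast. Injection began at a tumour volume of 100 to 150 mm3, was given 3 times at intervals of 48 h, and the tumours were taken 24 h after the last dose. The sources used here do not give the ages of the mice.

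The cytokine receptors of this pathway have no kinase activity of their own and rely on JAK kinases bound to their tails. A cytokine brings receptor chains together, the JAKs phosphorylate each other and the receptor, and STAT proteins dock, are phosphorylated, pair up and move to the nucleus, where they switch on target genes. Type I interferons, the cytokines that RIG-I induces, signal through Jak1 and Tyk2, and their main transcription factor complex, ISGF3, contains Stat2 and the DNA-binding protein Irf9. Stat3 serves cytokines of the interleukin-6 family, Stat5a and Stat5b serve growth factors and interleukin-2, and Stat6 serves interleukin-4 and interleukin-13. These proteins are switched on by phosphorylation, which RNA levels do not measure.

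Stat2 was the only member whose RNA passed the test between groups, and the promoter sequence upstream of its start is shown first because it carries a motif that the corresponding windows of the other 7 members did not. The window comes from RefSeq on build GRCm38.p6, at chr10:128270248-128270497 on the plus strand, and ends at the base before the annotated start. Capitals mark a match to the interferon-stimulated response element, searched on both strands as GAAA, any 2 bases and GAAA, and found here on the opposite strand, 222 to 213 bases before the start.

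Stat2: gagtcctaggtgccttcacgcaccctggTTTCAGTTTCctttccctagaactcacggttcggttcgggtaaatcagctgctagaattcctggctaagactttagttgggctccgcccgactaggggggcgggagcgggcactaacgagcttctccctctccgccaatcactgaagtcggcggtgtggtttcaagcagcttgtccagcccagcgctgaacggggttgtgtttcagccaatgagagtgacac

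All 8 members had at least 1 window, 10 windows in all, and 1 of the 10 held this motif in its 250 upstream bases. Of all 32851 windows in the table, 978 (2.98%) held it, which is 936 of 27025 genes (3.46%). Among the 30 interferon target genes listed below, 20 had a window and 9 of those 20 held the motif. It was found for 0 of 33 matched receptor chains, 1 of 12 inhibitors, 2 of 21 Stat3 targets, 1 of 10 Stat4 targets, 0 of 8 Stat5 targets and 0 of 16 Stat6 targets. Oas3, whose level followed that of Stat2 most closely across tumours, carried it 75 to 66 bases before its start (GRCm38.p6 chr5:120777715-120777744, minus strand). Its surrounding bases are given for comparison with the window of Stat2, with the match in capitals.

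Oas3: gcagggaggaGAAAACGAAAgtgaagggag

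The gamma-activated site, searched as TTCNNNGAA, was present in 0 of the 10 member windows when 50 bases after the start were added, and in 8.30% of all such windows. The wider STAT6-type spacing, with 4 bases between TTC and GAA, occurred in 1 of the 10, that of Stat2, and in 6.95% of all windows. In the Stat2 window this second match lay 210 to 201 bases before the start and did not overlap the first. A match of letters is a description and does not show that a factor binds.

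Stat2, the STAT that is dedicated to interferon signalling, stood at 110, 105, 90.1, 113 and 72.5 CPM (read counts relative to the library size, scaled by TMM) in PBS tumours 1 to 5. In SLR14 tumours 1 to 5 it stood at 169, 163, 185, 171 and 170 CPM. Every SLR14 tumour was above every PBS tumour, with 163 CPM as the lowest SLR14 and 113 CPM as the highest PBS value. The mean was 98.2 ± 16.9 CPM with PBS against 172 ± 8.09 CPM with SLR14 (n = 5, SD). The fold change was 1.75 (95% interval 1.46 to 2.08, log2 fold change 0.81, SE 0.12, adjusted p = 0.00482 by edgeR). Stat2 was thus 1 of 8 members called higher, where edgeR called 0.963% of all 15883 tested genes, 0.674% higher and 0.290% lower. No member was called lower. The call held in 19 of 19 alternative fits, with adjusted p-values of at most 0.0259.

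**Figure D1:**
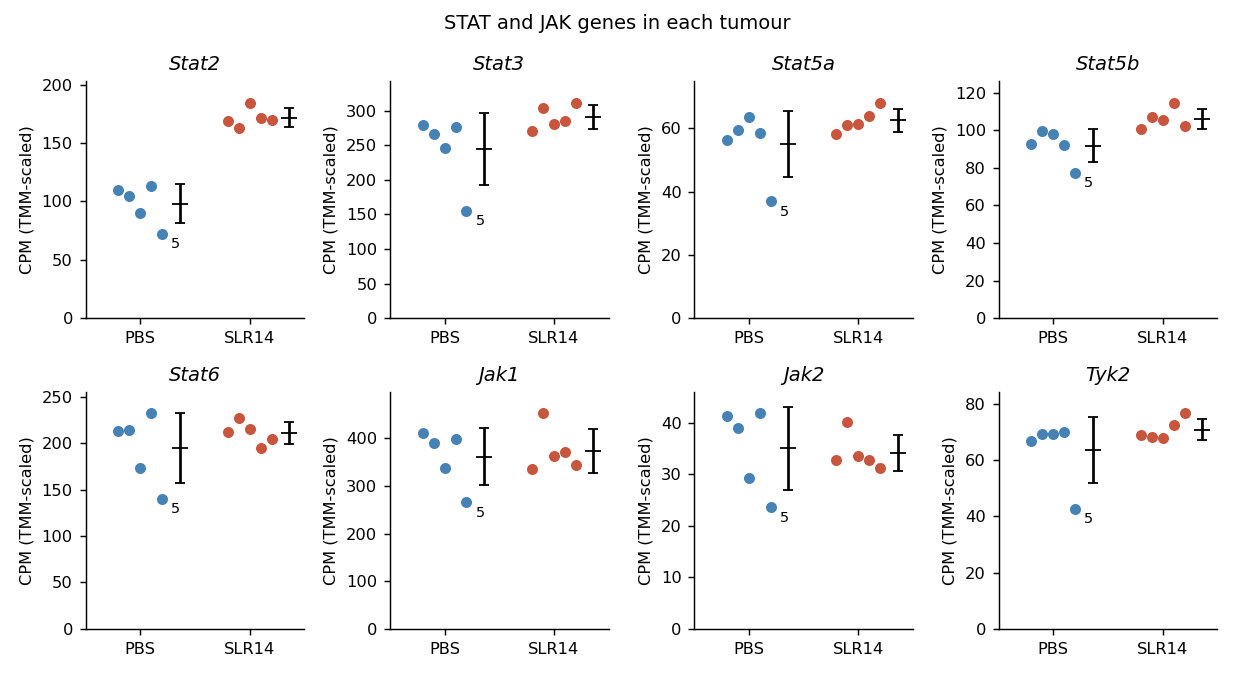
TMM-scaled CPM (vertical axes, starting at 0) of the 8 members in each of 5 PBS (blue) and 5 SLR14 (red) tumours, with the mean and SD beside each group and PBS tumour 5 marked. Stat2 separates the groups with 72.5 to 113 CPM against 163 to 185 CPM, and PBS 5 is the lowest point in each panel.

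Stat5b was the second member whose groups did not overlap, by a narrow margin. This STAT carries growth hormone and interleukin-2 signals. It stood at 92.5, 99.6, 97.9, 92.0 and 77.3 CPM in PBS and at 100.4, 107, 106, 115 and 102 CPM in SLR14 tumours. The highest PBS and the lowest SLR14 tumour nearly touched. The difference did not pass the test (log2 fold change 0.21, SE 0.09, unadjusted p = 0.0387, adjusted p = 0.436 by edgeR), and its 95% interval allows a fold of 1.01 to 1.32. Among all tested genes, 1.92% lay higher in every SLR14 tumour than in any PBS tumour and 1.32% lower, and 10.8% had an unadjusted p under 0.05. Its paralog Stat5a stood at 56.3, 59.3, 63.6, 58.5 and 36.9 CPM in PBS and at 58.3, 60.9, 61.4, 63.7 and 68.1 CPM in SLR14 tumours. Those ranges overlapped (log2 fold change 0.19, SE 0.13, fold interval 0.940 to 1.38, adjusted p = 0.613 by edgeR). Leaving out PBS 5 gave 0.07 for Stat5a (95% interval -0.08 to 0.21, adjusted p = 0.771 by edgeR).

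The 2 paralogs share part of their sequence. In the longest GENCODE M21 transcripts, 10.8% of the stretches of 50 bases of Stat5a and 11.8% of those of Stat5b also occur in another gene, mostly the other paralog. How the counting treated reads from such stretches is not known, so the single values of Stat5a and Stat5b are uncertain, by an amount that was not tested. The ratio of Stat5b to Stat5a, each per kb of exon, was 2.20 ± 0.291 in PBS and 2.19 ± 0.149 in SLR14 tumours (n = 5, SD), with the highest value, 2.70, in PBS 5. The closeness of the group means depends on PBS 5. The ratio was 2.11, 2.16, 1.98 and 2.02 in PBS tumours 1 to 4. In SLR14 tumours 1 to 5 it was 2.22, 2.26, 2.22, 2.32 and 1.93. A difference in this ratio was not tested.

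Stat3, the factor of interleukin-6 family cytokines, stood at 279, 266, 245, 277 and 155 CPM in PBS and at 270, 304, 281, 285 and 312 CPM in SLR14 tumours. PBS 5 lay far under all the others, which overlapped. The log2 fold change was 0.25 (SE 0.14, adjusted p = 0.551 by edgeR), with an interval of 0.961 to 1.47 in fold. Without PBS 5 it was 0.12 (95% interval -0.03 to 0.27, adjusted p = 0.563 by edgeR). Stat6, the factor of interleukin-4 and interleukin-13, stood at 214, 214, 174, 232 and 140 CPM in PBS and at 212, 227, 215, 195 and 205 CPM in SLR14 tumours. These ranges overlapped as well (log2 fold change 0.12, SE 0.13, fold interval 0.895 to 1.31, adjusted p = 0.745 by edgeR). For Stat6 the value without PBS 5 was 0.01 (95% interval -0.17 to 0.20, adjusted p = 0.977 by edgeR).

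Among the kinases, Jak1, which many interferon and interleukin receptors use, stood at 412, 390, 338, 399 and 266 CPM in PBS tumours. In SLR14 tumours it stood at 335, 452, 362, 371 and 344 CPM. The groups overlapped and the highest value of all was SLR14 2. The log2 fold change was 0.05 (SE 0.13, adjusted p = 0.905 by edgeR), and the 95% interval excludes folds over 1.26 or under 0.849. Tyk2, the partner of Jak1 at the type I interferon receptor, stood at 66.9, 69.1, 69.1, 69.8 and 42.7 CPM in PBS and at 68.9, 68.3, 67.8, 72.5 and 76.6 CPM in SLR14 tumours. The first 4 PBS tumours lay within the SLR14 range or just under it (log2 fold change 0.16, SE 0.13, fold interval 0.924 to 1.34, adjusted p = 0.653 by edgeR). Without PBS 5 the log2 fold change of Tyk2 was 0.04 (95% interval -0.09 to 0.17, adjusted p = 0.872 by edgeR).

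Jak2, the kinase of the growth hormone and erythropoietin receptors, stood at 41.3, 39.0, 29.4, 41.8 and 23.6 CPM in PBS and at 32.9, 40.2, 33.6, 32.8 and 31.3 CPM in SLR14 tumours. It was the only member with a negative log2 fold change, -0.04 (SE 0.15, fold interval 0.778 to 1.22, adjusted p = 0.934 by edgeR). Its sign turned to positive without PBS 1, 2 or 4 (0.03, 0.00 and 0.03), and without PBS 5 it was -0.16 (95% interval -0.40 to 0.08, adjusted p = 0.641 by edgeR). Jak1 turned to -0.05 without PBS 5 and to -0.03 without SLR14 2. With DESeq2 size factors or upper-quartile factors no member changed sign. Positive fold changes were seen for 7 of 8 members, with a median of 0.17, where 48.0% of all tested genes had one and the median was -0.01. Without PBS 5, 6 of 8 members had a positive fold change and their median was 0.05, against 49.2% of 16171 tested genes and a median of -0.0031.

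**Figure D2:**
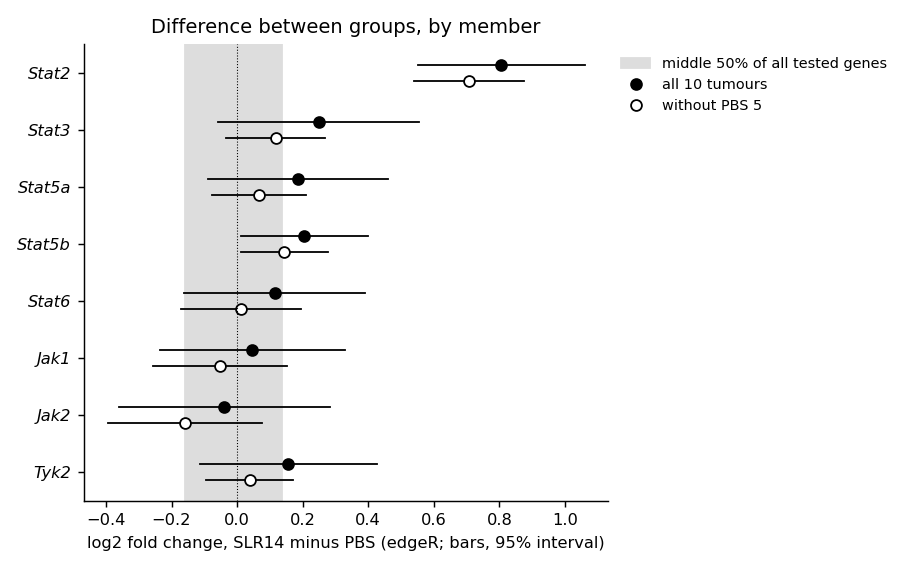
The edgeR log2 fold change, SLR14 minus PBS (horizontal axis), of each member with its 95% interval, over all 10 tumours (filled) and without PBS 5 (open), with the middle 50% of all tested genes in grey. Stat2 stays at 0.81 and 0.71, while the other members lie nearer 0 and most move towards it without PBS 5.

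PBS 5 was the lowest of the 10 tumours for all 8 members, as it was for 28.6% of all tested genes. It was the lowest of the 5 PBS tumours for 34.0% of them. Relative to the mean of PBS tumours 1 to 4, it held between 58.2% (Stat3) and 81.0% (Stat5b) of each member, and 57.5% to 80.0% with DESeq2 size factors. Over tested genes with at least 1 CPM, the median log2 ratio of PBS 5 to those tumours was -0.03. The 5 erythroid genes listed as markers summed to 160 CPM in PBS 5 and to at most 89.0 CPM elsewhere, and the 6 endothelial genes to 107 CPM, the lowest of the 10. Their part in the low values was not tested. Without PBS 5, Stat2 kept a log2 fold change of 0.71 (95% interval 0.54 to 0.88, adjusted p = 0.000719 by edgeR), and the other 7 members did not pass.

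A quantity that does not depend on the scaling between tumours is the share of each gene in the summed level of its family. Each level was divided by the length of the gene's exons, and the 5 STAT genes analysed here were summed in each tumour. Stat2 made up 15.3%, 14.7%, 14.2%, 15.2% and 15.4% of that sum in PBS tumours 1 to 5. It made up 21.7%, 19.8%, 22.7%, 21.8% and 21.1% in SLR14 tumours 1 to 5. The ranges were 4.38 points apart, and PBS 5, low in absolute level, held a share like that of the other PBS tumours. The means were 15.0 ± 0.507% and 21.4 ± 1.08% (n = 5, SD). The share of Stat6 was 39.9 ± 1.85% in PBS and 35.4 ± 1.60% in SLR14 tumours, with ranges that overlapped between 36.9% and 37.2%. Since the shares add up to the whole, a larger share of Stat2 leaves less for the other 4 genes. The level of Stat6 itself was 44.2 ± 8.49 and 47.9 ± 2.69 CPM per kb (n = 5, SD). Stat3 held 23.0 ± 1.49% and 22.5 ± 1.07%.

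**Figure D3:**
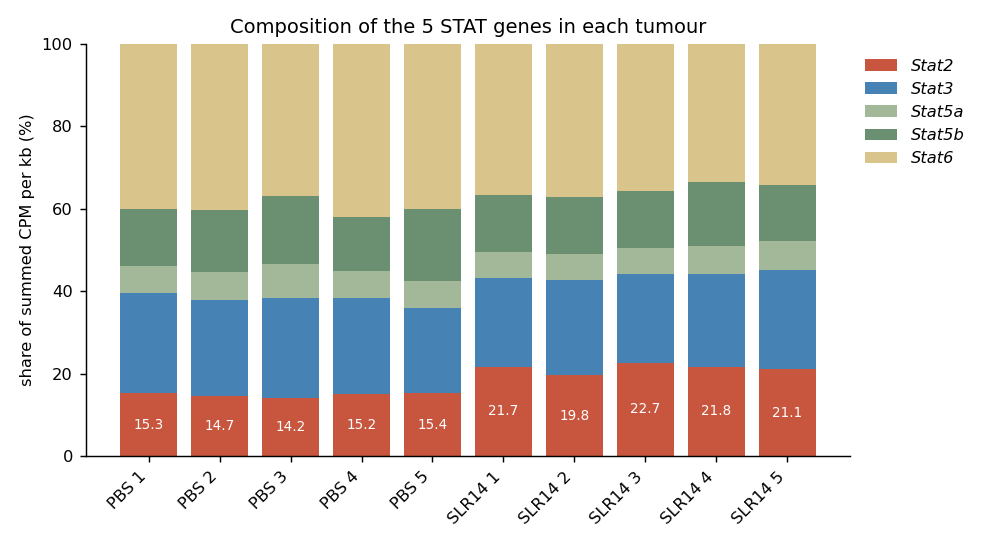
Share of each of the 5 STAT genes in their summed CPM per kb of exon (vertical axis, %) in each tumour, with the share of Stat2 printed. Stat2 takes 14.2% to 15.4% in PBS and 19.8% to 22.7% in SLR14 tumours.

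Among the kinases no share separated the groups. Jak1 held 75.6 ± 1.01% of the sum of Jak1, Jak2 and Tyk2 in PBS and 75.0 ± 1.75% in SLR14 tumours. Tyk2 held 13.0% to 16.1% and 12.4% to 17.2%, and Jak2 10.4 ± 0.831% and 9.88 ± 0.351%. The ranges of all 3 shares overlapped between the groups.

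By level per kb of exon, Jak1 (50.0 ± 8.31 CPM per kb in PBS tumours) and Stat6 (44.2 ± 8.49) led, followed by Stat3 (25.7 ± 5.41), Stat5b (16.6 ± 1.58), Stat2 (16.6 ± 2.85), Tyk2 (9.25 ± 1.70), Stat5a (7.70 ± 1.46) and Jak2 (6.96 ± 1.61). Neighbours in this order overlapped in their ranges except Stat6 over Stat3 and Stat2 over Tyk2. The ranges of Stat3 and Stat5b overlapped through PBS 5. An overlap of ranges across tumours does not show the order within a tumour. In PBS tumours the share of the STAT sum was 20.5% to 24.2% for Stat3 and 13.2% to 17.6% for Stat5b. Stat3 was thus above Stat5b within each PBS tumour. In SLR14 tumours Stat2 reached 29.0 ± 1.36 CPM per kb, beside Stat3 at 30.5 ± 1.79 and above Stat5b at 19.1 ± 0.998. With the longest transcript in place of all exons, Stat2 lay above Stat5b and Stat5a above Tyk2 already in PBS tumours. Levels between genes therefore depend on the transcript length used.

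Within groups the members varied together when PBS 5 was included. After subtraction of group means from log2(CPM + 1), Pearson r was positive for all 28 pairs, with a median of 0.814. By permutation within groups, 3 pairs passed after adjustment over the 28. They were Stat5a with Tyk2 (r = 0.980, rho = 0.879, permutation p = 0.00265, adjusted 0.0247), Stat6 with Jak2 (r = 0.965, rho = 0.952, permutation p = 0.00147, adjusted 0.0247) and Jak1 with Jak2 (r = 0.95, rho = 0.842, permutation p = 0.00197, adjusted 0.0247). The Spearman permutation p-values were 0.0113, 0.00242 and 0.00475. Without the 2 tumours farthest from the median of the first gene, these 3 pairs had r = 0.900, 0.919 and 0.886. Over all 28 pairs the median r then was 0.154, and 16 of the 28 were positive. The permutation p-values of the 3 named pairs then were 0.0167, 0.0191 and 0.0461, and 0 pairs passed after adjustment. That result decides little, since few tumours were left.

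Without PBS 5 the highest r were those of Stat6 with Jak2 and Jak1 with Jak2 (r = 0.917 and 0.882, permutation p = 0.00695 and 0.00896, adjusted 0.125 for both). Stat5a with Tyk2 had r = 0.787 (permutation p = 0.0159, adjusted 0.148), and r was negative for Stat5a with Stat6 and with Jak2 (r = -0.628 and -0.655, permutation p = 0.0770 and 0.0881, adjusted 0.349). None of the 28 pairs passed without PBS 5.

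**Figure D4:**
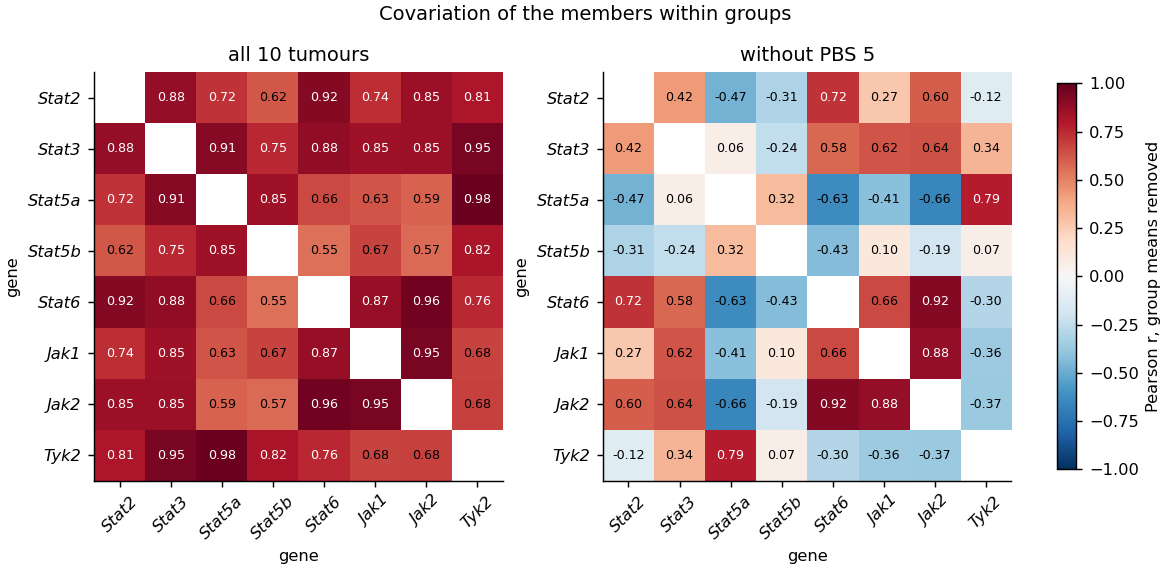
Pearson r of log2(CPM + 1) between members after removal of group means (colour, from -1 to 1, values printed), over all 10 tumours (left) and without PBS 5 (right). All 28 values are positive on the left, with a median of 0.814, and 16 of 28 are positive on the right, with a median of 0.0871.

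Across all 10 tumours, groups included, the 2 genes whose log2(CPM + 1) was most like that of Stat2 among 9465 genes with a mean of at least 10 CPM were Oas3 and Rigi (Pearson r = 0.976 and 0.973, and 0.962 and 0.968 without PBS 5). Oas3 makes the oligoadenylates that activate RNase L, and Rigi encodes the RNA sensor itself. For Stat3 they were Ssh1 and Mtcl2 (both 0.996), for Stat5a Vars1 and Sipa1 (0.994 and 0.991), for Stat5b Bicdl1 and Zbtb16 (both 0.964) and for Stat6 Abcc1 and Golga2 (0.983 and 0.981). For Jak1 they were Igf2bp2 and Rab3gap2 (0.981 and 0.980), for Jak2 Kif3b and Gpalpp1 (0.984 and 0.982) and for Tyk2 Zswim6 and Ankrd13a (0.994 and 0.991). The likeness of these 16 genes was the criterion of their choice and was not tested.

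Irf9, the DNA-binding subunit that completes ISGF3, was higher together with Stat2. It stood at 28.5, 32.1, 29.8, 37.5 and 32.0 CPM in PBS and at 47.1, 43.1, 44.1, 43.5 and 51.1 CPM in SLR14 tumours. The groups did not overlap, and PBS 5 was not low for Irf9 (log2 fold change 0.52, SE 0.09, adjusted p = 0.0214 by edgeR). Irf9 lost its call with the replicate block and in 6 of the 10 fits that left out a tumour, which omitted PBS 1, PBS 2, PBS 3, SLR14 1, SLR14 3 or SLR14 5, with 0.0954 as the highest adjusted p. Per kb of exon, the ratio of Stat2 to Irf9 was 2.81 ± 0.522 in PBS and 3.42 ± 0.298 in SLR14 tumours (n = 5, SD), with overlapping ranges.

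Upstream of the kinases, none of the tested receptor chains passed. Of 40 listed chains that use JAKs, 36 had a row and 33 were tested. Of these edgeR called 0, where it called 0.963% of all tested genes, so the 0 says little about the chains. An unadjusted p under 0.05 by edgeR was seen for 6 of the 33 and for 10.8% of all tested genes. Groups did not overlap for 2 chains higher and 1 lower with SLR14, against 1.92% and 1.32% of all tested genes. DESeq2, which called 2.19% of all genes, called 1, and limma voom, which called 0.913%, called 0. The median log2 fold change was 0.06. The type I interferon receptor chains Ifnar1 (115 ± 10.7 and 125 ± 2.04 CPM, adjusted p = 0.629 by edgeR) and Ifnar2 (62.4 ± 6.49 and 74.2 ± 3.41 CPM, adjusted p = 0.318 by edgeR) did not pass (n = 5, SD). The log2 fold change was 0.12 for Ifnar1 (95% interval -0.07 to 0.30) and 0.25 for Ifnar2 (95% interval 0.06 to 0.44, unadjusted p = 0.015 by edgeR). The groups of Ifnar2 overlapped, with 71.6 CPM in PBS 4 and 69.9 CPM in SLR14 3. The shared interleukin-6 family chain Il6st (117 ± 15.9 and 115 ± 8.23 CPM, adjusted p = 0.914 by edgeR), the interleukin-4 receptor chain Il4ra (113 ± 16.8 and 125 ± 12.9 CPM, adjusted p = 0.653 by edgeR) and the common beta chain Csf2rb (72.6 ± 15.7 and 70.6 ± 4.56 CPM, adjusted p = 0.923 by edgeR) overlapped between groups. The chain with the smallest p was Il22ra1, a subunit of the interleukin-22 receptor, at 1.99 ± 0.335 and 3.15 ± 0.507 CPM (log2 fold change 0.67, SE 0.19, adjusted p = 0.149 by edgeR). It was also the chain that DESeq2 called.

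Of 20 inhibitors of the pathway, 1 rose, 0 fell and 19 did not pass, with a median log2 fold change of 0.11. Among all tested genes 0.674% were called higher by edgeR. Usp18, which removes Isg15 from proteins and shuts off signalling at Ifnar2 with the help of Stat2, stood at 20.8 to 31.9 CPM in PBS and at 35 to 55.6 CPM in SLR14 tumours. Usp18 rose (log2 fold change 0.81, SE 0.15, adjusted p = 0.0241 by edgeR), a call lost with the replicate block and when PBS 1, PBS 2, PBS 3, SLR14 1 or SLR14 3 was left out, where the adjusted p reached 0.10. Socs1, a feedback inhibitor that binds JAKs, was low, at 1.78 ± 0.427 and 2.79 ± 0.692 CPM (log2 fold change 0.65, SE 0.23, adjusted p = 0.300 by edgeR). Socs3, which restrains Stat3 signalling, was at 64.8 ± 12.0 and 83.8 ± 19.5 CPM (adjusted p = 0.436 by edgeR), and Cish, a Stat5 target and inhibitor, at 3.74 ± 0.645 and 4.46 ± 1.52 CPM (adjusted p = 0.706 by edgeR).

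Downstream, known targets were counted for interferon and for each STAT list, where edgeR called 0.674% of all tested genes higher and 0.290% lower. Of 30 interferon targets 25 rose, 0 fell and 5 did not pass, with a median log2 fold change of 1.04. Irf9 and Usp18, described above, are among the 25. The 4 with the smallest p were Irf7 (2.46), Rsad2 (1.78), Oasl2 (1.62) and Zbp1 (1.87, all log2 fold changes, edgeR adjusted p at most 0.000687). The count was 14 without PBS 1 or PBS 3 and 15 without SLR14 1 or SLR14 3, and 15 with the replicate block. These genes were known from earlier results to rise in these tumours, so the count is not independent evidence.

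Of 24 Stat3 targets 1 rose, 0 fell and 23 did not pass, with a median of 0.14. The gene that rose was Lcn2 (32.3 to 39.4 CPM with PBS, 59.2 to 122 CPM with SLR14, log2 fold change 1.36, SE 0.16, adjusted p = 0.00106 by edgeR), an iron-trapping protein that neutrophils also carry. The 8 neutrophil markers summed to 14.3 to 22.9 CPM in PBS and to 25.8 to 58.9 CPM in SLR14 tumours, with 3 of the 6 tested called higher, and the part of those cells in the value of Lcn2 was not tested. Of 13 Stat5 targets edgeR called 0, with 5 at an unadjusted p under 0.05. DESeq2 called 2 higher and 1 lower, and limma voom 0. The smallest p was that of Ccnd2, cyclin D2, at 9.47 ± 2.78 and 19.1 ± 6.21 CPM (log2 fold change 1.02, SE 0.24, adjusted p = 0.0712 by edgeR). Ccnd2 passed without SLR14 2, with DESeq2 and with voom quality weights. Of 12 genes known as Stat4 targets, 9 were tested, with a median log2 fold change of 0.39. Of these 8 had a positive log2 fold change. An unadjusted p under 0.05 by edgeR was seen for 7 of the 9 and for 10.8% of all tested genes. After adjustment 1 rose, Gzmb, the granzyme B of killer lymphocytes. Its means were 0.193 ± 0.159 and 1.22 ± 0.682 CPM (log2 fold change 2.59, SE 0.53, adjusted p = 0.0361 by edgeR). Its groups overlapped through PBS 2, and its call was lost with limma voom, with or without quality weights, and when PBS 1, PBS 3, PBS 4, PBS 5, SLR14 1, SLR14 2 or SLR14 3 was omitted, with 0.108 as the highest adjusted p. A gene this low could pass the filter through the SLR14 tumours alone. Other low genes of this list could have passed in the same way. The counts of positive values and of unadjusted p under 0.05 are therefore no evidence of an excess. In the fit without PBS 5 and in that with quality weights, 1 Stat4 target other than Gzmb was called higher.

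Of 22 listed Stat6 targets 20 had a row and 19 were tested. Of these 0 rose, 6 fell and 13 did not pass, and 7 had a positive and 12 a negative log2 fold change, with a median of -0.30. Among all tested genes 0.290% were called lower by edgeR. Alox15, a lipoxygenase of alternatively activated macrophages, stood at 4.94 to 9.90 CPM in PBS and at 0.179 to 1.27 CPM in SLR14 tumours (log2 fold change -3.46, SE 0.35, adjusted p = 0.000406 by edgeR). Mgl2, a galactose-binding lectin of macrophages and dendritic cells, stood at 40.9 to 64.4 and 11.6 to 23.6 CPM (log2 fold change -1.43, SE 0.19, adjusted p = 0.00254 by edgeR). The groups of both genes were far apart. The others were Cd209a, Ccl17, Ccl24 and Irf4, of which the last 2 are named after their values were seen, with log2 fold changes of -4.36, -3.26, -1.92 and -1.43. The fall of several of these genes was known when the list was made. Stat6 itself and Il4ra overlapped between groups, as given above. Conventional dendritic cell markers, which include Cd209a, summed to 25.2 to 64.8 CPM in PBS and to 14.9 to 29.8 CPM in SLR14 tumours, with 2 of the 5 tested called lower. Of these 2, 1 is Cd209a itself, already counted among the 6 Stat6 targets that fell. Macrophage markers summed to 2671 to 3154 and 2622 to 3463 CPM, with none of 10 called. The part of cell numbers in these values was not tested, and in whole tumours fewer cells of a type and less RNA per cell cannot be told apart.

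**Figure D5:**
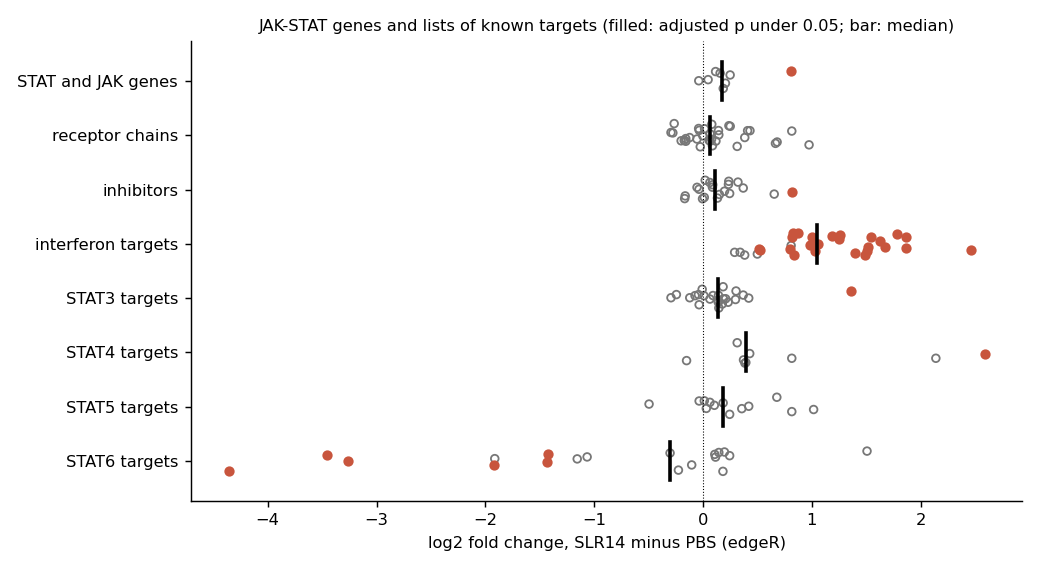
The edgeR log2 fold change, SLR14 minus PBS (horizontal axis), of each tested gene among the members, receptor chains, inhibitors and known targets of each STAT, with genes at an adjusted p under 0.05 filled and the median of each list as a bar. The interferon targets lie around 1.04 with 25 of 30 called, and the called Stat6 targets all lie under 0.

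Total counts ranged from 17931895 to 39842608 per tumour, which gave between 610 and 14263 reads for a member in a tumour. At these counts the spread among tumours, with coefficients of variation of 9.55% to 23.2% in PBS and 4.71% to 12.5% in SLR14 tumours, set the precision (medians over all tested genes 19.9% and 12.0%). The PBS spread came in part from PBS 5. Without it the PBS SD was smaller for each member, from 11.7 to 1.25 CPM for Tyk2 and from 8.12 to 5.81 CPM for Jak2. RENCA markers of renal tubule origin were present in all tumours, such as Pax8 at 64.2 to 113 CPM and Krt8 at 1180 to 1759 CPM, while Epcam (0.178 to 6.11 CPM) and Car9 (0.557 to 1.49 CPM) were low. Epcam was lower in SLR14 tumours (adjusted p = 0.0324 by edgeR). Stat2, Stat5b and Jak2 overlap no other annotated exon in GENCODE M21. Tyk2 shares 554 bp of exon with an antisense gene that has its own row, Stat3 and Stat5a share 72 bp on opposite strands, Stat6 shares 40 bp with Nab2 and Jak1 shares 4 bp with Raver2. Since the sources used here do not give the strand setting of the counting, reads in these stretches cannot be assigned.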

How the data were processed

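RNA from 5 PBS and 5 SLR14 tumours was sequenced after ribosomal depletion and oligo(dT) enrichment, per the labels' protocols. Build mm39, STAR, Trim Galore 0.6.7 and DESeq2 1.36.0 are listed in the submitters' processing notes, with no order. The sources used here do not give the counter, strand setting or annotation. The deposited table holds the authors' raw counts for 18603 genes. A second deposited table of normalized values was not used.

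Groups came from the sample titles. Genes were filtered with filterByExpr (minimum count 10), scaled by TMM and tested with edgeR 4.0.16's quasi-likelihood test in R 4.3.3 over 10 tumours, with Benjamini-Hochberg adjustment over 15883 genes at 0.05. The SE is the absolute log2 fold change over the square root of F. CPM are TMM-scaled, and 95% intervals use edgeR's degrees of freedom. The scripts were tested on simulated counts. Correlations used 100000 permutations within groups. Exon lengths are the union of exons in GENCODE M21 (GRCm38), which is not the submitters' build, so they serve levels per kb only. Promoter windows are RefSeq's on GRCm38.p6.

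Members and the 7 gene lists were chosen with earlier results of these data known. Named genes are the members, 10 fixed pathway genes, up to 4 called genes with the smallest p in each direction of each list (or its smallest p where none passed), and the 2 genes most like each member. Replicate numbers are shared by the groups. Same-numbered tumours did not deviate together (r from -0.250 to 0.138), so the numbers were not taken as pairs. Alternatives were DESeq2 1.42.0, limma 3.58.1 voom with and without quality weights, other size factors, other filters, the replicate block and fits without single tumours.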

Additional observations from a re-analysis of the deposited data

Results flagged for a closer look

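Within a group of 5, a tumour was noted when its gap to the nearest other over the group's range exceeded Dixon's 95% critical value. Of 108 groups checked 12 were noted, where chance gives about 1 in 20 for independent groups. These groups were not independent, since they include genes chosen for likeness to a member and shares of the same sum. The same tumour can therefore be noted many times, and no excess can be read from the count. Among members, PBS 5 stood low for Stat3 (155 CPM, others 245 to 279), Stat5a (36.9, others 56.3 to 63.6) and Tyk2 (42.7, others 66.9 to 69.8), and SLR14 2 stood high for Jak2 (40.2, others 31.3 to 33.6). The share of Stat5a in the STAT sum was high in PBS 3 (8.34%, others 6.50% to 6.89%), and that of Stat5b in SLR14 4 (15.6%, others 13.6% to 13.9%).

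Genes chosen for likeness to a member over these same tumours were noted too, which their choice makes likely. PBS 5 was low for Vars1 (454 CPM), Zbtb16 (23.0), Zswim6 (9.80) and Ankrd13a (74.3), and SLR14 2 was high for Igf2bp2 (184). Gzmb was high in PBS 2 (0.476 CPM, others 0.113 to 0.139).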

How the results depend on the processing

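Stat2 stayed higher and past the threshold in 19 of 19 alternatives (log2 fold change 0.71 to 0.86), and no other member passed in any. Genes called numbered 153, and 407 with DESeq2, 349 with quality weights, 78 with the replicate block and 69 to 194 when 1 tumour was left out. The replicate block left 15 interferon targets and 0 inhibitors, and changed no member's call. When 1 tumour was left out, interferon targets called numbered 14 to 26, inhibitors 0 to 1, Stat4 targets 0 to 1 and Stat5 targets called higher 0 to 1. With DESeq2, 1 receptor chain, 2 Stat4 targets and 2 Stat5 targets were higher and 1 Stat5 target lower. Quality weights gave 1 Stat5 target higher and 1 lower. Stat4 targets fell to 0 with limma voom, with 1 CPM in 5 samples and without PBS 5 and SLR14 2, where 1 Stat5 target was higher. Pairs past the threshold fell from 3 to 0 without PBS 5, without PBS 5 and SLR14 2 (both chosen after seeing the data) and without the 2 farthest tumours. With 2 tumours left out, few tumours remain, so a count of 0 decides little. The cause of the fall was not tested.

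Signs turned for values near 0. Without PBS 5 and SLR14 2, Stat6 was at -0.017, Jak1 at -0.13, Golga2 at -0.024, Igf2bp2 at -0.25, Rab3gap2 at -0.099 and Kif3b at -0.11. With quality weights, Jak1 was at -0.082, Golga2 at -0.011, Igf2bp2 at -0.15, Rab3gap2 at -0.065 and Kif3b at -0.086. Kif3b was at -0.023 with upper-quartile factors. When 1 tumour was left out, log2 fold changes ranged from -0.052 to 0.099 for Jak1, -0.16 to 0.034 for Jak2, -0.12 to 0.00082 for Il6st and -0.16 to 0.057 for Csf2rb. They ranged from -0.11 to 0.14 for Igf2bp2, -0.019 to 0.17 for Rab3gap2, -0.077 to 0.055 for Kif3b and -0.10 to 0.016 for Gpalpp1.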
